A study of Mus musculus with 4 samples.

Results

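The liver X receptors (LXRs) and the lipid genes that they control were compared in cultured mouse T cells, Tc9 cells grown in a Tc9 cytokine condition against Tc1 cells grown in a Tc1 cytokine condition. The list held 10 genes: the receptors Nr1h2 and Nr1h3, the cholesterol exporters Abca1, Abcg1 and Abcg4, the desaturases Scd1 and Scd2, and Mylip, Lpcat3 and Srebf1. Probe sets whose annotated symbol was a listed gene were taken, which gave 7 of the 10 genes among the 19505 genes tested. Nr1h2, Scd2 and Srebf1 are not analysed here. In the field, Tc9 cells are CD8 T cells known for interleukin 9, and Tc1 cells are the cytotoxic CD8 T cells known for interferon gamma. Each group had 2 Affymetrix arrays of total RNA, numbered 1 and 2 in the sample titles, and the stated question was how gene expression differs between the cell types. The sources used here do not give the cytokines, the time in culture or the strain and genotype. They also do not say that the arrays of a group came from separate cultures or animals, so p-values measure only the spread between these samples, which may be technical.

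LXRs are nuclear receptors that are switched on by oxysterols, the oxidised products of cholesterol. They bind DNA together with retinoid X receptors at direct repeats of a half-site and raise genes that move cholesterol out of the cell, lower its uptake and make and remodel fatty acids. Nr1h2 encodes LXR beta, which most cells express, and Nr1h3 encodes LXR alpha, best known from liver and macrophages. In T cells LXR signalling is known to restrain the build-up of cholesterol and the division that follows activation.

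The stretch closest to the idealised repeat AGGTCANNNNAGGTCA, the kind of element that LXRs bind, is shown for the members whose promoters matched best. Of these, Srebf1 has no value here, so its letters stand beside none. In the RefSeq promoter table for GRCm38.p6, which gives 250 bases before and 50 bases after each start, 6 of the 10 members had an entry, with 9 windows in all. Abcg1, Abcg4, Scd1 and Scd2 were not searched. Both strands were searched, over the 12 fixed positions of the repeat. The closest matches, with 3 mismatches each, lay in the Abca1 window and in 1 of 3 Srebf1 windows. The capitals mark the match, which reads on the strand opposite to the gene, and both stretches are written on the strand of the gene.
Abca1, chr4:53159907-53160002, minus strand: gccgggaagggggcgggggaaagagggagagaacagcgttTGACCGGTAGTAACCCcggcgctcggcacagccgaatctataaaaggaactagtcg
Srebf1, chr11:60210598-60210693, minus strand: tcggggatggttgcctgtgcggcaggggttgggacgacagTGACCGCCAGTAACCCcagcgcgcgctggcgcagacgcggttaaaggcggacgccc
The match lay from -67 to -52 relative to the annotated start of Abca1 and from -182 to -167 relative to that of Srebf1. The windows of Nr1h2, Nr1h3 and Lpcat3 and the other Srebf1 windows had 4 mismatches at best, and that of Mylip had 5. A match with at most 3 mismatches was found in 21.9% of the 32851 windows in the table, so this search by itself is a description of the letters and maps no binding site.

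The arrays numbered 1 and those numbered 2 stood apart. Their median deposited intensities were 37.9 and 37.1 for the Tc9 and Tc1 arrays numbered 1, and 57.1 and 57.3 for the Tc9 and Tc1 arrays numbered 2. Intensities were therefore quantile normalized over the 4 arrays, and values below are normalized linear intensities unless they are called deposited. A log2 change is Tc9 minus Tc1 of log2(intensity + 16), which understates the change of dim genes, and its error is the standard error of the limma fit. Background was read from 5222 negative control probe sets. Their 95th percentile of deposited intensity was 123 and 197 on the Tc9 arrays and 131 and 218 on the Tc1 arrays. A gene whose deposited intensity was under the percentile of the same array is called below background. The normalized values below are on another scale and cannot be set against these percentiles. By limma 75 genes rose and 35 fell in Tc9 at an adjusted p under 0.05 (0.564% of genes), and with the values as deposited 13 rose and 3 fell. The CD8 T cell markers Cd3e, Cd3d, Cd8a and Cd8b1 were above background on all 4 arrays. Il9 measured 103 and 81.9 on the Tc9 arrays and 23.4 and 26.5 on the Tc1 arrays, all below background. Of 6 measured markers of macrophages, cells rich in LXR alpha, all 6 were below background on all 4 arrays, with summed intensities of 250 to 318 in Tc9 and 232 to 270 in Tc1. Of the other markers, 4 of 5 for dendritic cells, 3 of 4 for B cells and all of those for CD4 T cells, NK cells, mast cells and platelets were below background on all 4 arrays. Over all 19505 genes tested, 11738 were below background on all 4 arrays, so such counts of dim markers say little by themselves. The part of other cells in the results was not tested.

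Among the members, Scd1 was higher in Tc9 cells, Abcg1 had a smaller difference that did not pass the test, Lpcat3 and Mylip lay within their spread, and Nr1h3, Abca1 and Abcg4 were too dim to measure reliably. By limma 1 of the 7 measured members rose in Tc9 and 0 fell, against 0.385% of all genes that rose and 0.179% that fell. Before adjustment 2 members, Scd1 and Abcg1, had p under 0.05, both higher in Tc9, against 5.28% of all genes in either direction. With the replicate number as a block in the fit, the same 2 rose and 0 fell, against 6.34% of all genes that rose and 7.37% that fell. Both Tc9 arrays lay above both Tc1 arrays for these 2 members, against 14.0% of all genes (29.1% of all genes had groups that did not overlap, in either direction). The median log2 change of the 7 was 0.11, against -0.0027 for all genes tested. Of the 7, 4 were above background on at least 1 array and only Mylip and Lpcat3 on all 4. Each member was measured by a single probe set.

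**Figure D1:**
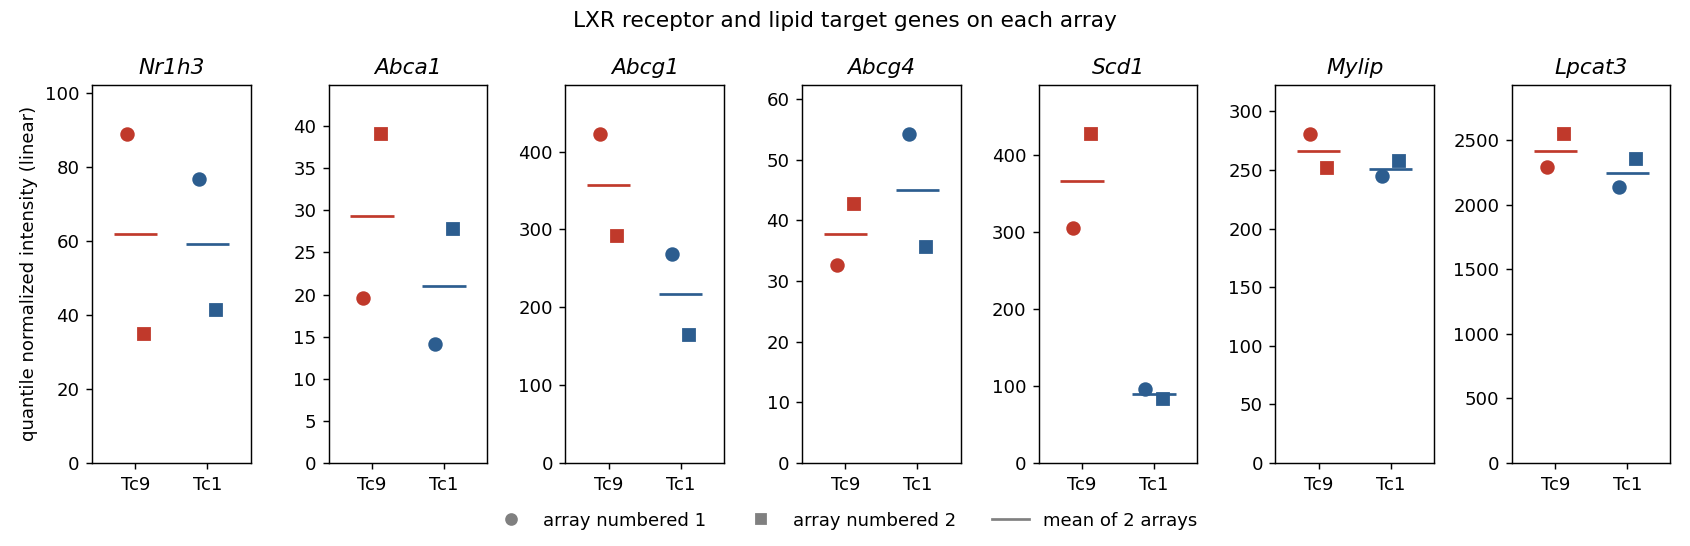
Quantile normalized intensity (linear axis from 0, a scale per gene) of the 7 measured members on each of the 4 arrays, Tc9 on the left and Tc1 on the right of each panel. Points are arrays, circles those numbered 1 and squares those numbered 2, and lines are means of 2 arrays. For Scd1 the Tc9 arrays read 305 and 427 and the Tc1 arrays 96.6 and 82.5, while for Nr1h3 the arrays numbered 1 lay above those numbered 2 in both groups.

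Nr1h3, the receptor LXR alpha itself, measured 88.9 and 34.9 on the Tc9 arrays and 76.9 and 41.4 on the Tc1 arrays. All 4 values were below background, and the groups overlapped. The array numbered 1 was the higher in both groups, so that the spread within a group exceeded any difference between the groups. The log2 change was 0.00074 ± 0.40 (SE; 95% interval -0.95 to 0.95), with 0.18 in the arrays numbered 1 and -0.17 in those numbered 2.

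The exporters send cholesterol from the cell to lipoproteins outside it. Abca1 loads cholesterol and phospholipid onto lipid-poor apolipoprotein A-I, and it carries the promoter match shown above. It measured 19.6 and 39.0 on the Tc9 arrays and 14.2 and 27.8 on the Tc1 arrays. All 4 values were below background and the groups overlapped, with a log2 change of 0.28 ± 0.27 (95% interval -0.35 to 0.92; limma adjusted p = 1.00). Within each number the Tc9 array was the higher, by 0.24 and 0.33 on the log2 scale.

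Abcg1 passes cholesterol on to mature high-density lipoprotein, and in mouse T cells it has been linked to the control of division by LXR. It measured 422 and 292 on the Tc9 arrays and 269 and 165 on the Tc1 arrays. Both Tc9 values lay above both Tc1 values, and the Tc1 array numbered 1 was close under the Tc9 array numbered 2. Both Tc9 arrays and 1 of 2 Tc1 arrays were above background. The log2 change was 0.69 ± 0.28 (95% interval 0.029 to 1.36), or 1.62-fold, and did not pass over all genes (limma adjusted p = 0.879). It was 0.62 in the arrays numbered 1 and 0.77 in those numbered 2. With the replicate number as a block, which removes the difference between the numbers, Abcg1 had an adjusted p = 1.05e-07 by limma. That fit called 13.7% of all genes. It had 1 residual degree of freedom and an infinite prior, and so set 1 common spread for genes of similar brightness.

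Abcg4, a close relative of Abcg1 best known from brain, measured 32.6 and 42.7 on the Tc9 arrays and 54.2 and 35.7 on the Tc1 arrays. These values were below background and the groups overlapped. Its log2 change was -0.17 ± 0.25 (95% interval -0.76 to 0.41), with -0.53 in the arrays numbered 1 and 0.18 in those numbered 2.

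Scd1 encodes the stearoyl-CoA desaturase that puts a double bond into saturated fatty acids, and its expression is raised by LXR directly and through Srebf1. It measured 305 and 427 on the Tc9 arrays and 96.6 and 82.5 on the Tc1 arrays. The groups did not overlap, and the lower Tc9 array stood far above the higher Tc1 array. The mean was 366 ± 86.3 in Tc9 and 89.5 ± 9.97 in Tc1 (SD, n = 2 each), a log2 change of 1.84 ± 0.24 (95% interval 1.28 to 2.40; limma adjusted p = 0.0251), or 3.58-fold. It was 83rd of 19505 genes in order of p.

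Both Tc1 values of Scd1 were below background, so the size of its fold rests on a level near that of the negative controls. Set against the lowest signals above background on the Tc1 arrays, the mean of the Tc9 arrays was at least 1.96-fold higher. In the deposited intensities Scd1 read 217 and 552 on the Tc9 arrays, against 71.8 and 101 on the Tc1 arrays. The log2 change was 1.51 in the arrays numbered 1 and 2.17 in those numbered 2. It lay between 1.61 and 2.07 when any 1 array was left out. It did not pass on the deposited scale without normalization (limma adjusted p = 1.00), with median centring (0.0549) or without the intensity trend (0.0600). Scd1 has close relatives in the mouse genome, and cross-hybridisation among them was not tested. Of these relatives, Scd3 and Scd4 were below background on all 4 arrays, with no value above 40.7, and Scd2 is not analysed here.

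Mylip encodes a ubiquitin ligase, also called IDOL, that sends the low-density lipoprotein receptor to degradation and so lowers cholesterol uptake. It measured 280 and 252 on the Tc9 arrays and 244 and 258 on the Tc1 arrays. All 4 were above background, and the ranges overlapped. The log2 change was 0.077 ± 0.18 (95% interval -0.36 to 0.51), with 0.19 in the arrays numbered 1 and -0.032 in those numbered 2.

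Lpcat3 encodes an acyltransferase that puts polyunsaturated fatty acids into membrane phospholipids. It measured 2290 and 2545 on the Tc9 arrays and 2136 and 2354 on the Tc1 arrays. The ranges overlapped, and the difference between the group means was smaller than the gap between the arrays of either group. The log2 change was 0.11 ± 0.13, with 0.099 and 0.11 in the numbers, and its 95% interval of -0.19 to 0.40 was the narrowest among the members. All 4 values were above background.

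**Figure D2:**
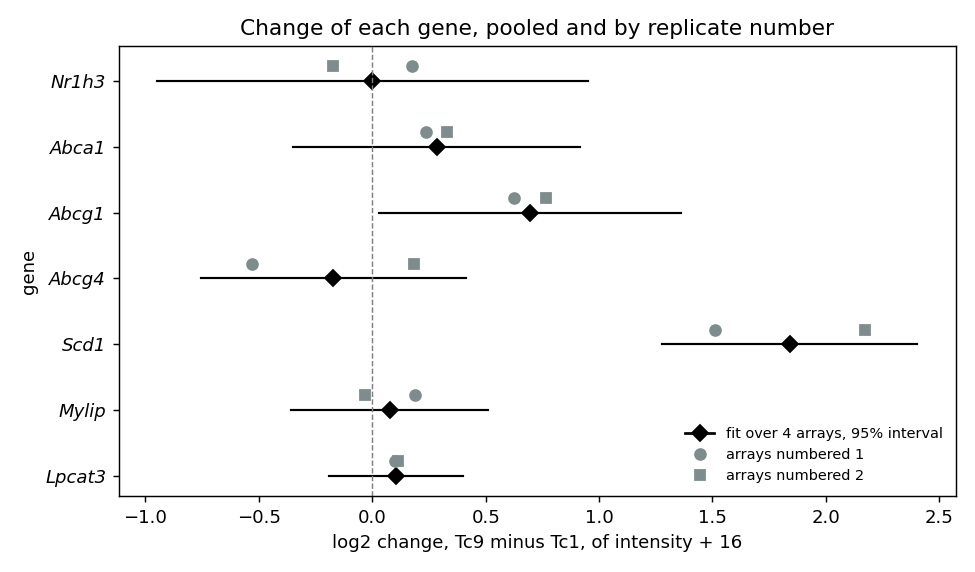
Log2 change of intensity + 16, Tc9 minus Tc1, for the 7 measured members. Diamonds are the fit over 4 arrays with its 95% interval, and grey circles and squares are the changes within the arrays numbered 1 and 2. Scd1 lies at 1.84 and Abcg1 at 0.69, and the intervals of the other 5 members include 0.

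Of the 7 measured members, Abca1, Abcg1, Scd1 and Lpcat3 had positive log2 changes within both numbers. For Nr1h3, Abcg4 and Mylip the sign differed between the numbers. Nr1h3, Abca1 and Abcg4 were below background on all 4 arrays. How many of all genes kept 1 sign in both numbers was not counted. The range of log2 changes over the 7 ran from -0.17 to 1.84. In bulk RNA, fewer cells that carry a transcript and less of it per cell cannot be told apart.

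The genes with the pattern over the 4 arrays most like that of Scd1 were H2-DMb2, Npas2 and Dusp4, by the Euclidean distance between gene-centred log2 values (0.22, 0.34 and 0.36). H2-DMb2, a chain of the chaperone that loads peptides onto MHC class II, measured 275 and 325 on the Tc9 arrays and 69.8 and 57.9 on the Tc1 arrays. Npas2, a transcription factor of the circadian clock, measured 677 and 800 in Tc9 and 171 and 203 in Tc1. Dusp4, a phosphatase of MAP kinases, measured 1031 and 1330 in Tc9 and 257 and 310 in Tc1. Both Tc1 values of H2-DMb2, as of Scd1, and 1 of the 2 Tc1 values of Npas2 were below background, so these distances rest in part on values near the negative controls. With 4 arrays, many genes that differ between the groups have such a pattern.

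Beyond the members, 6 related lists were described: partners and coregulators of LXR, enzymes and carriers of oxysterols, other LXR targets, Mylip substrates with their sterol control, relatives of the desaturases and acyltransferases, and other carriers of cholesterol and phospholipid. They held 103 different genes, and 88 of these had a probe set; the other 15 are not analysed here. Of the 88, 1 rose and 0 fell by limma, and 38 were below background on all 4 arrays. The median log2 change of the 88 was 0.035. Of all genes tested 0.564% were called in either direction, so 1 of 88 is not a result about these lists. Before adjustment 5 of the 88 were higher and 4 lower at p under 0.05, against 5.28% of all genes in either direction. With the replicate number as a block 10 rose and 12 fell, in a fit that called 13.7% of all genes. As described for Abcg1, that fit set 1 common spread for genes of similar brightness. Its p-values therefore do not measure the spread of the gene itself. The fit without the block had 2 residual degrees of freedom and a prior of 5.09. Its spread for a gene was thus also drawn in large part from genes of similar brightness. A gene given below with a block p-value alone did not pass limma without the block.

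The gene that rose was Ttc39b, at 2222 and 1955 on the Tc9 arrays and 1067 and 981 on the Tc1 arrays. The groups did not overlap, and all 4 values were above background. Its log2 change was 1.02 ± 0.13 (limma adjusted p = 0.0275), with 1.05 in the arrays numbered 1 and 0.98 in those numbered 2. Ttc39b stood in the list of other LXR targets, but its product is known, from mouse liver and intestine, as a scaffold that promotes the ubiquitination and loss of LXR protein. Ttc39b did not pass on the deposited scale without normalization (limma adjusted p = 1.00), with median centring (0.0802) or without the intensity trend (0.119).

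The other 22 measured members of the list of other LXR targets did not pass, and 12 of the 23 were below background on all 4 arrays. The largest changes among the rest whose mean was above background in a group were those of Fads2 and Elovl6. Fads2, a desaturase of polyunsaturated fatty acids, measured 144 and 179 in Tc9 and 253 and 260 in Tc1 (log2 change -0.62, limma adjusted p = 0.603, with the block 4.02e-05). Elovl6, which lengthens the saturated fatty acid palmitate, measured 854 and 878 in Tc9 and 1078 and 1158 in Tc1 (log2 change -0.36, adjusted p = 0.752, with the block 2.59e-05). Both lay on the opposite side of 0 from Scd1. Other fatty acid enzymes of the list had smaller log2 changes: Fasn -0.095, Acaca -0.094, Fads1 -0.016 and Elovl5 0.051. These were above background on all 4 arrays. Npc1, which carries cholesterol out of lysosomes, measured 192 and 193 in Tc9 and 178 and 154 in Tc1. Both Tc1 values of Npc1 were below background, and so was the value of Fads2 on the Tc9 array numbered 1. The list's median was 0.017.

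Of 17 measured partners and coregulators, 0 passed limma. Before adjustment 1 was higher and 0 lower at p under 0.05 (5.28% of all genes in either direction), and with the block 2 rose and 2 fell (13.7% of all genes). Ncoa3, a coactivator of nuclear receptors, measured 432 and 468 in Tc9 and 268 and 301 in Tc1 (log2 change 0.63, limma adjusted p = 0.353, with the block 8.15e-08). Nrip1, a corepressor, measured 445 and 299 in Tc9 and 591 and 335 in Tc1 (with the block, adjusted p = 0.0467). Tbl1xr1, a subunit of the corepressor complex that holds unliganded receptors silent, measured 687 and 876 in Tc9 and 543 and 742 in Tc1 (with the block 0.00801). The groups overlapped for Nrip1 and for Tbl1xr1. The list's median log2 change was 0.16.

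Of 15 measured genes of oxysterol supply and removal, 0 passed limma. Before adjustment 3 were higher and 1 lower at p under 0.05 (5.28% of all genes in either direction), and with the block 3 rose and 1 fell (13.7% of all genes). Of the 15, 8 were below background on all 4 arrays. Sult2b1, which sulphates cholesterol and oxysterols and so takes LXR ligands away, measured 557 and 575 in Tc9 and 357 and 418 in Tc1 (log2 change 0.53, limma adjusted p = 0.501, with the block 9.51e-07). The groups did not overlap. Hsd11b1, known for reactivating glucocorticoids and for reducing a ketosterol, measured 169 and 163 in Tc9 and 86.5 and 93.9 in Tc1. Its log2 change was 0.78 (limma adjusted p = 0.418, with the block 1.26e-05), but both Tc1 arrays were below background. Set against the lowest signals above background on the Tc1 arrays, Hsd11b1 was at least 0.945-fold in Tc9, a bound that shows no rise. Osbpl8, a lipid transfer protein of membrane contact sites, measured 449 and 287 in Tc9 and 816 and 519 in Tc1 (log2 change -0.83, limma adjusted p = 0.634, with the block 2.89e-16). Its groups did not overlap. Ch25h, which makes the LXR ligand 25-hydroxycholesterol in activated immune cells, and Cyp27a1, which makes another side-chain oxysterol, were below background on all 4 arrays and are named outside the rule for named genes.

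Of 7 measured Mylip substrates and sterol regulators, 0 passed limma and 0 had p under 0.05 before adjustment. With the block 1 rose and 1 fell (13.7% of all genes). Scap, the escort of the SREBP factors, measured 1723 and 1952 in Tc9 and 1568 and 1592 in Tc1 (with the block, adjusted p = 0.00638). Sqle, an enzyme of cholesterol synthesis, measured 337 and 470 in Tc9 and 416 and 617 in Tc1 (with the block 0.00638). Insig1, which holds Scap in the endoplasmic reticulum, measured 1200 and 958 in Tc9 and 1174 and 916 in Tc1. The groups overlapped for Sqle and Insig1. The list's median was 0.032.

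Of 14 measured relatives of the desaturases and acyltransferases, 0 passed limma. Before adjustment 0 were higher and 1 lower at p under 0.05 (5.28% of all genes in either direction), and with the block 2 rose and 4 fell (6.34% and 7.37% of all genes). Acsl4, which activates arachidonic acid, measured 1004 and 990 in Tc9 and 1281 and 1149 in Tc1 (log2 change -0.28, with the block 0.00140). Lpcat4, a relative of Lpcat3 in phospholipid remodelling, measured 531 and 598 in Tc9 and 591 and 815 in Tc1 (with the block 0.00801). Mboat7, which adds arachidonic acid to phosphatidylinositol, measured 672 and 624 in Tc9 and 570 and 528 in Tc1. The groups overlapped for Lpcat4 alone of the 3.

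Of 13 measured other carriers, 0 passed limma and 0 had p under 0.05 before adjustment. With the block 1 rose and 2 fell (13.7% of all genes). Scarb1, the receptor that exchanges cholesterol with high-density lipoprotein, measured 575 and 798 in Tc9 and 705 and 1017 in Tc1 (log2 change -0.32, with the block adjusted p = 0.00155), so that its groups overlapped. The lipid transporter Abca3 measured 273 and 284 in Tc9 and 197 and 243 in Tc1 (log2 change 0.33, limma adjusted p = 1.00). Abca2, another lipid transporter, measured 132 and 202 in Tc9 and 119 and 138 in Tc1 and was below background on 1 Tc9 array and both Tc1 arrays. The median log2 change was -0.013 for these carriers and -0.025 for the relatives of the desaturases and acyltransferases.

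**Figure D3:**
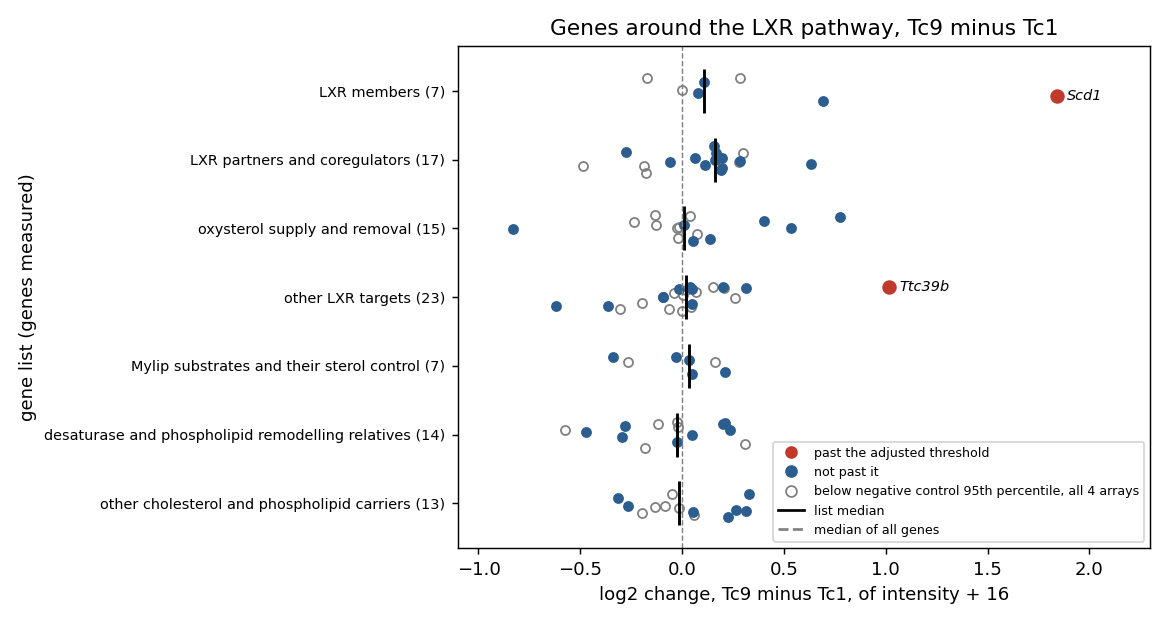
Log2 change of intensity + 16, Tc9 minus Tc1, of each measured gene in the member list and the 6 related lists, with the number of genes measured in brackets. Red points passed the adjusted threshold, blue points did not, open points were below background on all 4 arrays, black bars are list medians and the dashed line is the median of all genes. Scd1 at 1.84 and Ttc39b at 1.02 are the only genes shown that passed, and all list medians lie between -0.025 and 0.16.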

How the data were processed

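RNA of 2 Tc9 and 2 Tc1 samples was measured on Affymetrix arrays with a biotin label, per the labels. The authors deposited 1 intensity per probe set on each array; the sources used here do not name the background correction, summarization or software, and the size of the values showed a linear scale. Of 28846 probe sets, 6640 controls were left out, 19572 of the other 22206 had 1 gene symbol in the platform annotation, 0 had several and 2634 had none listed. All 19572 Entrez identifiers matched the RefSeq table. The highest-mean probe set stood for each of 55 genes with several. Quantile normalization ran over the 4 arrays, and tests used log2 of the normalized value plus 16. In limma 3.58.1 under R 4.3.3, lmFit and eBayes (intensity trend, no block) tested Tc9 minus Tc1 over 19505 genes, with Benjamini-Hochberg adjustment at 0.05; the code was tested on simulated data. In those data, among genes brighter than the median, the fit called 20 of 100 with a true log2 change of 1. It called 90 of 100 with a true change of 2. The number of arrays limits the precision, and a gene that did not pass may still differ. A gene's bound against background used, on each dim array, the lowest signal that exceeded the negative controls' 95th percentile, or its own signal where higher. The deposited values carried more digits on the arrays numbered 1 (median 10) than on those numbered 2 (median 7), so the numbers may mark separate processing; changes are given within each.

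The members and lists were chosen with earlier results of these data known. The genes named are the 10 members, the members of each related list past the threshold, up to 3 others per list with the largest absolute log2 change among those whose mean was above background in a group, and the 3 genes closest in pattern to each called member. Il9, the CD8 T cell markers, Scd3, Scd4, Ch25h, Cyp27a1, Fasn, Acaca, Fads1 and Elovl5 are named outside this rule, with their values known. Alternatives were no normalization, median centring, pseudocounts of 1 and 64, leaving out the lowest 25% of genes, no trend, a robust variance model, the replicate block, all probe sets, and leaving out each array.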

Additional observations from a re-analysis of the deposited data

How the results depend on the processing

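Over 13 alternatives Mylip and Lpcat3 kept a positive change and never passed, and Scd1 stayed positive, between 1.47 and 2.07, and passed in 10. Scd1 did not pass with the values as deposited (1.84), with median centring (1.82) or without the intensity trend (1.84). Abcg1 stayed positive and passed only with the replicate block (0.69); without any 1 array it ranged from 0.37 to 1.02. The dim members turned sign: Nr1h3 with median centring (-0.014), with a pseudocount of 1 (-0.017) and without 1 array (-0.52 to 0.52), Abca1 (-0.029 to 0.60) and Abcg4 (-0.39 to 0.048) without 1 array. Over all genes 16 passed with the values as deposited, 56 without the intensity trend and 2674 with the replicate block. Without the Tc9 array numbered 1 or 2, 247 and 274 passed, and without the Tc1 array numbered 1 or 2, 186 and 191. With the block 4 partners and coregulators, 4 oxysterol genes, 3 other LXR targets, 2 Mylip substrates and regulators, 6 desaturase and acyltransferase relatives and 3 other carriers passed. Without 1 array 0 to 1 oxysterol genes passed: Osbpl8, without the Tc9 array numbered 1 or the Tc1 array numbered 2. Leaving out an array leaves 1 array in a group, which is assumed to vary like the other group, and more genes passed in each such fit, so a call kept or gained there shows nothing about stability. The call among other LXR targets went to 0 with the values as deposited, with median centring and without the intensity trend. The cause of these changes was not tested. Same-numbered arrays deviated from their group means together (correlation across genes 0.729, over 2 pairs), but the labels do not say what the numbers mark. Signal over background limits Nr1h3, Abca1 and Abcg4 on all 4 arrays and Scd1 in Tc1.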
